A study of Arabidopsis thaliana with 24 samples.

Results

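The XTH genes of Arabidopsis thaliana encode xyloglucan endotransglucosylase/hydrolases, and the 33 loci named XTH1 to XTH33 were taken as the family by name alone. Of the 33, 31 had a row among the 23929 genes measured, and XTH1 and XTH3 were not analysed here. The members were chosen by name, and no measured value decides which gene is a member, but the family as a whole was put forward with earlier results of these libraries known, among them the log2 change of XTH15 in hypoxic Col. That value is given below as a description. The members follow the usual division by sequence into subgroup I (XTH1 to XTH11), subgroup II (XTH12 to XTH26) and subgroup III (XTH27 to XTH33).

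Xyloglucan is the main hemicellulose of the primary wall of dicots and lies between and along cellulose microfibrils. An XTH enzyme cuts a xyloglucan chain and joins the cut end to another chain, so that walls can be remodelled and new xyloglucan built in while cells grow. A few members, of which XTH31 and XTH32 are the known Arabidopsis examples, also hydrolyse xyloglucan. The family is known in seedlings for members with separate tissues and triggers, such as XTH22, also called TCH4 and induced by touch, and the root members XTH17 to XTH20.

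Transcripts were measured by RNA-seq in whole seedlings of 4 genotypes, the mutants vq1, vq10 and vq1vq10, which the series title calls hypermorphic, and wild type Col-0 (Col below). VQ1 and VQ10 encode proteins with a VQ motif. All seedlings grew for 14 days at 21% oxygen in MS medium with 1% sucrose and 16 h of light a day. Each genotype was then held for 4 h in dim light at 1% oxygen (hypoxia) or 21% oxygen (normoxia), with 3 biological replicates in each of the 8 groups. In every group the exposure began on day 15 at zeitgeber time 4 h. Light was 150 µmol during growth and 30 µmol during the exposure. The labels do not say how the alleles arose or whether a replicate pools seedlings, and the controls of each hypoxia comparison went through the same dim light.

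The 24 libraries held 21150032 to 22645177 reads assigned to genes. ADH1 and PDC1, which encode the enzymes of ethanol fermentation, rose under hypoxia in all 4 genotypes, ADH1 by 5.73 to 7.19 and PDC1 by 5.76 to 6.55 on the log2 scale. VQ10 had 1.04 to 2.46 CPM (reads scaled to a common library size with edgeR's TMM factors) in vq10, 1.05 to 2.21 CPM in vq1vq10 and 0.102 to 0.545 CPM in Col. VQ1 had 3.11 to 4.80 CPM in vq1 and 3.03 to 5.41 CPM in Col, and the labels do not say whether this allele alters the transcript, so vq1 below means the libraries labelled so.

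Upstream sequence is shown for 6 members called in every genotype, chosen as examples after their values were seen. XTH15, XTH25, XTH16 and XTH9 are those of the 7 members called lower in every genotype, by at least 1 log2 unit in each, that are not among the root members XTH14, XTH17 and XTH21, and XTH23 and XTH32 were at least 1 log2 unit higher in one of the genotypes. The sequences are the 250 bases before the annotated start in RefSeq's TAIR10.1, read 5′ to 3′ on the gene's strand. Capitals mark the letters AAACCA, the core of the anaerobic GT motif known from ADH genes, and CGTGTG, a form of the brassinosteroid response element. Both were marked on either strand (TGGTTT and CACACG when reversed), and other forms of the element were not searched.
XTH15 (chr4:8138393-8138642, - strand): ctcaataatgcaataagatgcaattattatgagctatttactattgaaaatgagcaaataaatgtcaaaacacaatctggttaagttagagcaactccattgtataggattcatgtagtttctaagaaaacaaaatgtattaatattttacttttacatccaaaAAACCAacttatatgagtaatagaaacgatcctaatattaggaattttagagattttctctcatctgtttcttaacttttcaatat
XTH25 (chr5:23306441-23306690, - strand): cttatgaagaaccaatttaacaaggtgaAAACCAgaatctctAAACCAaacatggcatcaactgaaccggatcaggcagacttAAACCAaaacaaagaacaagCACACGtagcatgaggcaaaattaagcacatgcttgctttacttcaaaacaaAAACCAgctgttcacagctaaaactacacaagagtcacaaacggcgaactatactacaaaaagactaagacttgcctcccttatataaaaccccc
XTH16 (chr3:8549787-8550036, + strand): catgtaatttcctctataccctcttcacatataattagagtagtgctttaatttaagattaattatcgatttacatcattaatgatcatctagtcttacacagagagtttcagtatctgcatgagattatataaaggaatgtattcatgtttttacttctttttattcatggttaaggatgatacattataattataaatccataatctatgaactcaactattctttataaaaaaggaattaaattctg
XTH9 (chr4:1415367-1415616, + strand): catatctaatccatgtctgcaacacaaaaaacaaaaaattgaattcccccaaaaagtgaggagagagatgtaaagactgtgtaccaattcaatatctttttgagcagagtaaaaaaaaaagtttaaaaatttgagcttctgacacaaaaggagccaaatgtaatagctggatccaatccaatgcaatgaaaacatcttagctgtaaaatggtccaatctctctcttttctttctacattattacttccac
XTH23 (chr4:13128144-13128393, + strand): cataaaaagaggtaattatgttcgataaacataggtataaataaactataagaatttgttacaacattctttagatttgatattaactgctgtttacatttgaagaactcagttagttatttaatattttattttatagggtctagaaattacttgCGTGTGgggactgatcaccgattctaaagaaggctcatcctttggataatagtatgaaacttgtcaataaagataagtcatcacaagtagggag
XTH32 (chr2:15474829-15475078, - strand): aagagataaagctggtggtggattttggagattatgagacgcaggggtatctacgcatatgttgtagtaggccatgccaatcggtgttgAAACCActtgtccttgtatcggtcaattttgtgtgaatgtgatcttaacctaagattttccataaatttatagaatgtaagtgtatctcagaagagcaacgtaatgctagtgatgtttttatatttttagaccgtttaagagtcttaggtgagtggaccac

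AAACCA occurred at 4 places upstream of XTH25 and at 1 place upstream of each of XTH15 and XTH32, while CGTGTG occurred at 1 place upstream of each of XTH25 and XTH23. The windows of XTH16 and XTH9 held neither. Over the family AAACCA lay in 10 of 33 windows (30.3%), against 27.3% of 27443 promoters of protein-coding genes, so the members held it about as often as genes at large. CGTGTG lay in 4 members (12.1%), against 5.4% of all promoters, and the auxin response element TGTCTC lay in 2 members (6.1%), against 10.9% of all promoters. The G-box CACGTG, the evening element AAAATATCT and the GCC-box GCCGCC were in no member's window, against 6.5%, 2.4% and 1.9% of all promoters. Both strands were searched, and the closing letters CA of AAACCA can also open CACGTG or CACACG, so these motifs can overlap.

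Levels of different members were compared on the deposited TPM scale, which divides by transcript length. XTH4 and XTH24 were the most abundant, with means of 448 and 429 TPM over the 24 libraries. XTH24, also known as MERI5, is a member of subgroup II, and XTH4, also known as EXGT-A1, is a member of subgroup I. XTH27 followed at 132 TPM, XTH6 at 104 TPM and XTH7 at 98.9 TPM. In all, 4 members averaged at least 100 TPM, 14 between 10 and 100, 7 between 1 and 10, and 6 under 1 TPM.

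The order of the means of XTH4 and XTH24 differed between the oxygen levels in vq1, vq10 and Col, but not in vq1vq10. In hypoxic vq1 XTH24 averaged 319 TPM and XTH4 289 TPM, with ranges that overlapped, and XTH24 had the higher mean in hypoxic vq10, vq1vq10 and Col as well. The ranges also overlapped in hypoxic vq10 and Col. In normoxic Col XTH4 averaged 582 ± 30.9 TPM and XTH24 387 ± 52.0 TPM (SD, n = 3). XTH4 had the higher mean in normoxic vq1 and vq10 too. In replicate 1 of these groups XTH24 was the higher, at 560.5 against 519.0 TPM in vq1 and 685.0 against 587.4 TPM in vq10. In normoxic vq1vq10 the means were 573 TPM for XTH4 and 582 TPM for XTH24, of which 1 library reached 828 TPM. Together the pair made up means of 51.4% to 56.0% of the family's summed TPM in the 8 groups.

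**Figure D1:**
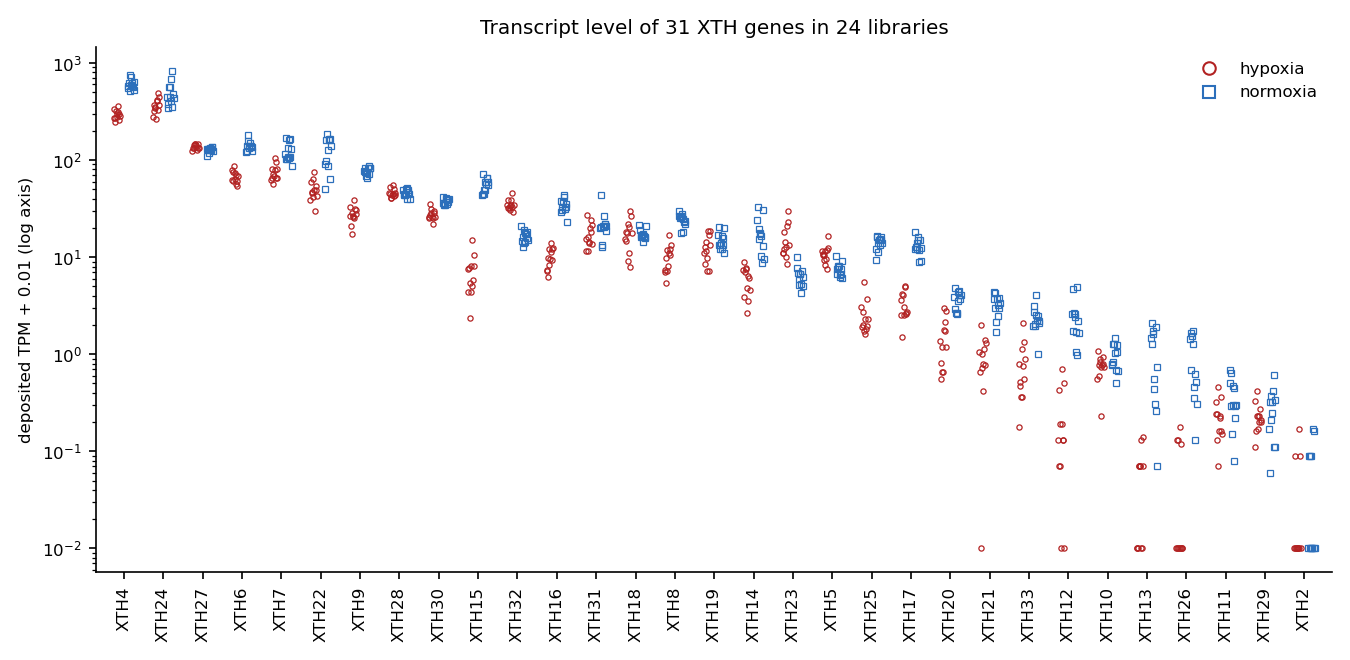
Deposited TPM of the 31 measured XTH genes (log axis, 0.01 added so that values of 0 can be drawn), ordered by their mean, with hypoxic libraries as circles and normoxic ones as squares. XTH4 and XTH24 stand above the rest, and the 6 members under 1 TPM lie at the right with XTH2 last.

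The summed TPM of the family was lower in every hypoxic library than in any normoxic one. It averaged 1170 ± 92.0 TPM in hypoxic vq1 against 2118 ± 131 TPM in normoxic vq1, 1298 ± 153 against 2021 ± 182 TPM in vq10, 1309 ± 75.1 against 2086 ± 251 TPM in vq1vq10, and 1186 ± 103 against 1888 ± 50.9 TPM in Col (SD, n = 3). Subgroup III did not follow. Its sum averaged 259 to 268 TPM in the hypoxic groups and 242 to 255 TPM in the normoxic ones. TPM gives shares of a library, so a sum says nothing of the RNA per cell, and in whole seedlings fewer cells of a type and less RNA per cell cannot be told apart. TPM also does not use the TMM factors. When libraries were scaled by their totals alone, the median log2 change of all genes under hypoxia was -0.12 in vq1vq10 and -0.25 in Col. The part of this offset in the sums was not tested.

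**Figure D2:**
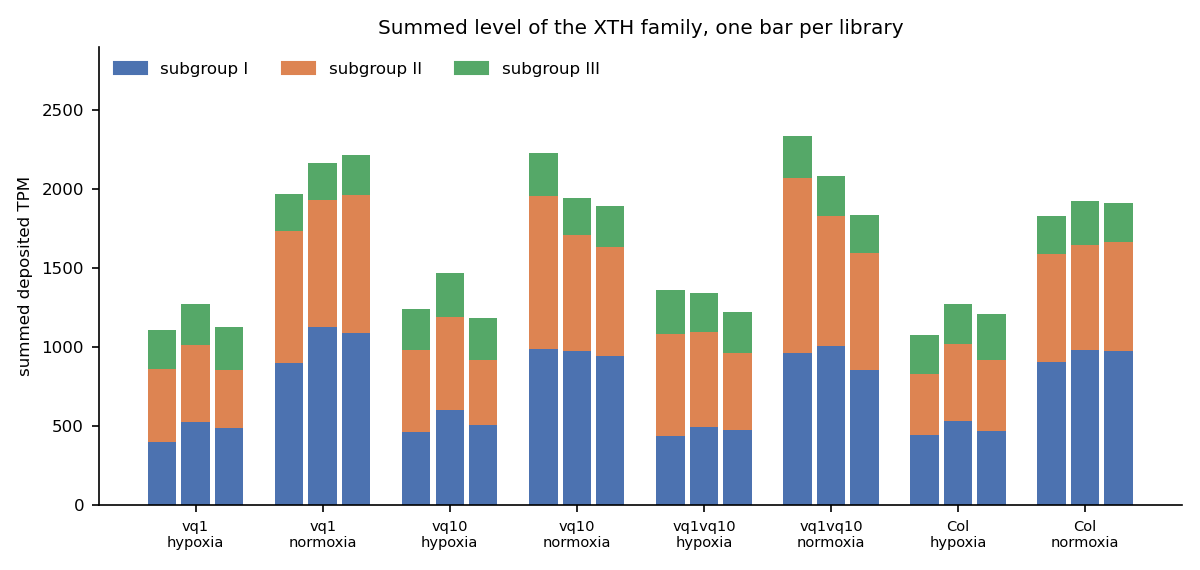
Summed deposited TPM of the XTH genes in each library (y axis, from 0), split into subgroups I, II and III, with the hypoxic bars left of the normoxic ones for each genotype. Hypoxic libraries reach 1074 to 1471 TPM and normoxic ones 1829 to 2338 TPM, and the part of subgroup III stays near the same height.

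Hypoxia was compared with normoxia within each genotype by edgeR's quasi-likelihood test over 20110 genes, and a gene was called at a Benjamini-Hochberg adjusted p under 0.05. Enough reads for the test were found for 28 members, and the other 3 were XTH2 with 0 to 2 reads per group, XTH11 with 8 to 23 and XTH29 with 10 to 25. In vq1, 17 of the 28 members were lower and 4 higher under hypoxia, beside 16.5% and 19.1% of all genes tested. In vq10, 12 were lower and 5 higher, beside 18.2% and 19.5% of all genes. In vq1vq10, 17 were lower and 3 higher, beside 15.7% and 17.7%, and in Col 16 were lower and 5 higher, beside 19.9% and 21.9%. The Col count includes XTH15. Without hypoxic replicate 2 of vq10, 17 members were lower in vq10.

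The members' median log2 change was -1.07 in vq1, -0.71 in vq10, -0.84 in vq1vq10 and -0.77 in Col, where the median of all genes lay between -0.01 and -0.02. The 4 comparisons share no library, and the members' values for Col in this paragraph include XTH15. The 3 hypoxic libraries lay wholly below the 3 normoxic ones for 19 members in vq1, 14 in vq10, 16 in vq1vq10 and 16 in Col, and wholly above them for 4, 5, 4 and 4 members. Groups lay apart in one direction or the other for 49.6% of all genes in vq1, 48.1% in vq10, 47.6% in vq1vq10 and 46.1% in Col.

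Of the 28 members, 13 were called in all 4 genotypes, always in the same direction. XTH4, XTH6, XTH8, XTH9, XTH14, XTH15, XTH16, XTH17, XTH21 and XTH25 were lower, and XTH5, XTH23 and XTH32 were higher. These are 10 and 3 of 28 members, beside 8.77% of all genes tested that were called lower in all 4 genotypes and 12.1% that were called higher. The 10 include XTH15, whose change in Col was known when the family was put forward. A further 10 were called in some genotypes and 5 in none, and no member was called in both directions. By subgroup, 5 of 7 tested members of subgroup I were lower in vq1, 4 in vq10, 5 in vq1vq10 and 5 in Col, and XTH5 was higher in each. Of 15 members of subgroup II, 11 were lower in vq1, 7 in vq10, 11 in vq1vq10 and 10 in Col, and XTH23 was higher in each. The Col count of subgroup II includes XTH15. Of 6 members of subgroup III, 1 was lower in each genotype, while 2 were higher in vq1, 3 in vq10, 1 in vq1vq10 and 3 in Col. In subgroup III the single lower call in each genotype, and the single higher one in vq1vq10, are near the shares of all genes given above.

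**Figure D3:**
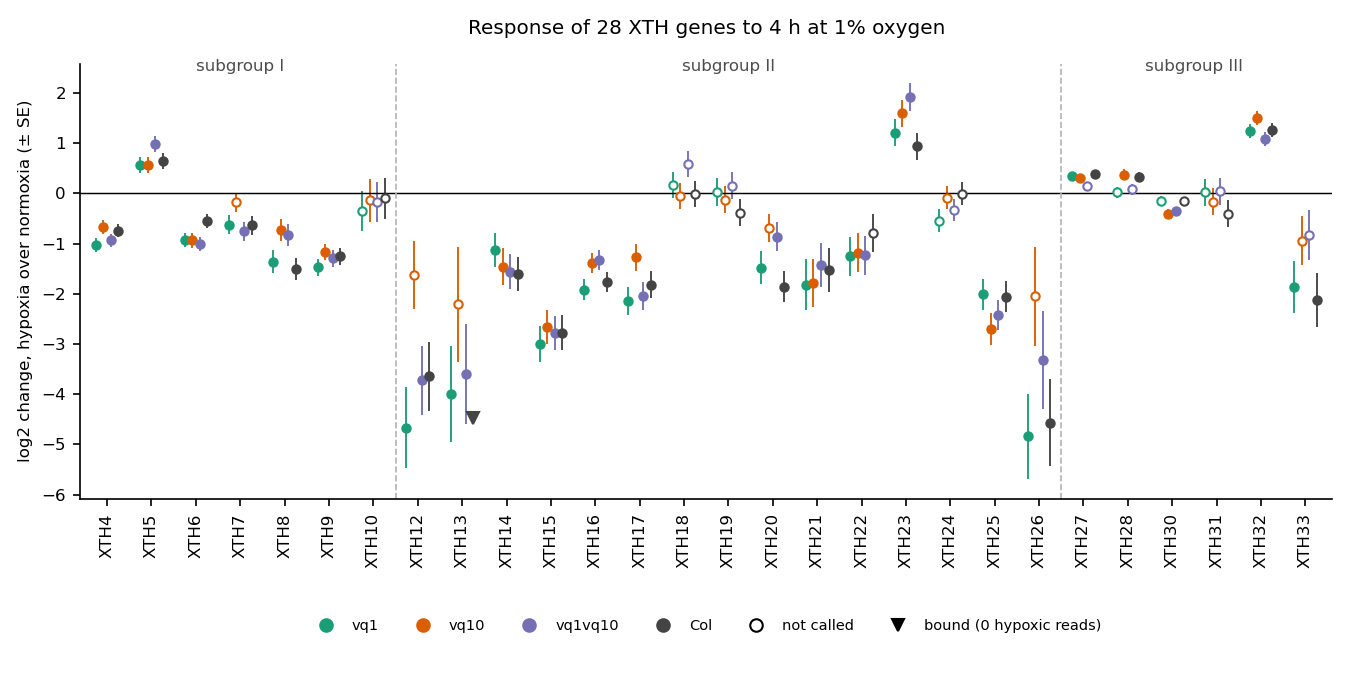
Log2 change of the 28 tested XTH genes, hypoxia over normoxia, with the standard error of the edgeR fit, for each genotype (filled, called at an adjusted p under 0.05; open, not called). The triangle for XTH13 in Col is a bound from 0 hypoxic reads, and the values of XTH12, XTH13 and XTH26 rest on few hypoxic reads; most of subgroup II lies below 0, and XTH23 and XTH32 lie above 0 in all 4 genotypes.

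XTH4 (AT2G06850, chr2:2763449-2765743) is known from expanding tissue and from secondary growth of the stem. XTH4 had 241, 303 and 277 CPM in hypoxic vq1, against 446, 657 and 570.0 CPM in normoxic vq1. XTH4 stood at 275, 339 and 307 CPM in hypoxic vq10, with 489, 518 and 461 CPM in normoxic vq10. The hypoxic libraries lay below the normoxic ones in both genotypes. XTH4 in vq1vq10 had 227, 255 and 259 CPM under hypoxia, against 463, 523 and 431 CPM under normoxia. XTH4 in Col had 275, 349 and 238 CPM under hypoxia and 463, 459 and 516 CPM under normoxia. The groups were apart here too, with log2 changes of -1.03 ± 0.14 (SE) in vq1, -0.67 ± 0.14 in vq10, -0.94 ± 0.14 in vq1vq10 and -0.74 ± 0.14 in Col and adjusted p of 3.54e-06, 5.02e-04, 1.27e-05 and 1.62e-04 in that order.

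XTH5, whose coding sequence is the closest to that of XTH4 in the family (72.5% identical), moved the other way. XTH5 measured 11.7, 10.2 and 12.5 CPM in hypoxic vq1 and 8.03, 7.85 and 7.42 CPM in normoxic vq1. For vq10, XTH5 gave 9.51, 10.3 and 8.64 CPM under hypoxia and 5.87, 6.35 and 6.96 CPM under normoxia. XTH5 came to 11.8, 16.3 and 13.0 CPM in hypoxic vq1vq10 and 6.38, 5.80 and 8.54 CPM in normoxic vq1vq10. All hypoxic libraries of these genotypes lay above the normoxic ones. Hypoxic Col held XTH5 at 13.4, 12.8 and 10.8 CPM, against 9.97, 7.02 and 6.46 CPM in normoxic Col. For XTH5 the log2 change was 0.56 ± 0.16 in vq1, 0.57 ± 0.17 in vq10, 0.99 ± 0.16 in vq1vq10 and 0.65 ± 0.16 in Col, with adjusted p of 0.00926, 0.00978, 5.10e-05 and 0.00247. XTH5 was no longer called in vq1 or vq10 when libraries were scaled by their totals alone, nor in vq1 without hypoxic replicate 3.

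XTH6 (AT5G65730, chr5:26298728-26300529) was apart in every genotype. XTH6 had 66.7, 91.5 and 78.3 CPM in hypoxic vq1, against 175, 154 and 120.4 CPM in normoxic vq1. XTH6 stood at 71.1, 74.8 and 62.9 CPM in hypoxic vq10, with 131, 142 and 126 CPM in normoxic vq10. XTH6 in vq1vq10 had 60.4, 51.8 and 70.2 CPM under hypoxia, against 126, 128 and 113 CPM under normoxia. The lowest value was 51.8 CPM, in hypoxic vq1vq10. XTH6 in Col had 71.0, 94.3 and 75.5 CPM under hypoxia and 112, 111 and 130.2 CPM under normoxia. For XTH6 the log2 change was -0.93 ± 0.14, -0.94 ± 0.14, -1.01 ± 0.14 and -0.55 ± 0.14 in vq1, vq10, vq1vq10 and Col, and the largest of the 4 adjusted p was 0.00275, in Col.

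XTH8 (AT1G11545, chr1:3878495-3880391) was the one member called in all genotypes whose groups overlapped in one of them. XTH8 had 4.83, 6.26 and 10.2 CPM in hypoxic vq1, against 14.2, 20.8 and 19.7 CPM in normoxic vq1. XTH8 stood at 7.41, 14.7 and 10.1 CPM in hypoxic vq10, with 21.4, 14.0 and 18.2 CPM in normoxic vq10. The second vq10 library under hypoxia lay above the lowest normoxic one. XTH8 in vq1vq10 had 8.57, 9.61 and 11.2 CPM under hypoxia, against 17.4, 16.9 and 17.8 CPM under normoxia. XTH8 in Col had 6.45, 7.21 and 8.06 CPM under hypoxia and 20.2, 21.9 and 19.6 CPM under normoxia. For XTH8 the log2 change was -1.36 ± 0.23 in vq1, -0.73 ± 0.22 in vq10, -0.83 ± 0.22 in vq1vq10 and -1.50 ± 0.23 in Col. The call in vq10 (adjusted p 0.012) was lost without hypoxic replicate 1 and without normoxic replicate 1.

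XTH9 (AT4G03210, chr4:1415617-1417444), known from the shoot apex and, with XTH4, from secondary growth, was lower in every hypoxic library than in any normoxic one. XTH9 measured 19.2, 29.2 and 25.5 CPM in hypoxic vq1 and 67.2, 73.2 and 64.8 CPM in normoxic vq1. For vq10, XTH9 gave 29.4, 39.6 and 27.7 CPM under hypoxia and 62.5, 77.3 and 78.0 CPM under normoxia. XTH9 came to 30.1, 29.5 and 29.2 CPM in hypoxic vq1vq10 and 65.2, 78.8 and 73.7 CPM in normoxic vq1vq10. The 3 hypoxic libraries of vq1vq10 differed by under 1 CPM. Hypoxic Col held XTH9 at 30.6, 36.9 and 21.6 CPM, against 72.3, 62.6 and 76.9 CPM in normoxic Col. No group overlapped, and the log2 change was -1.47 ± 0.17, -1.17 ± 0.16, -1.29 ± 0.16 and -1.25 ± 0.16 in vq1, vq10, vq1vq10 and Col, with adjusted p between 3.04e-07 and 6.06e-06.

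Of the remaining members of subgroup I, XTH7 (AT4G37800, chr4:17775370-17777445) was lower in 3 genotypes, by -0.62 ± 0.19 in vq1, -0.75 ± 0.19 in vq1vq10 and -0.63 ± 0.19 in Col. In vq10 its change was -0.17 ± 0.19 (adjusted p 0.496). The call in vq1 was lost without hypoxic replicate 1 and without normoxic replicate 3, and the call in Col without normoxic replicate 2. XTH10 had 32 to 46 reads per hypoxic group and 42 to 69 per normoxic group and was called in no genotype.

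XTH15 (AT4G14130, chr4:8137020-8138392), also known as XTR7 and used as a marker of shade responses, stood low in every hypoxic library. XTH15 measured 2.11, 4.65 and 6.99 CPM in hypoxic vq1 and 38.9, 35.5 and 36.2 CPM in normoxic vq1. For vq10, XTH15 gave 4.00, 12.9 and 4.53 CPM under hypoxia and 45.1, 44.1 and 48.1 CPM under normoxia. XTH15 came to 4.68, 6.31 and 8.77 CPM in hypoxic vq1vq10 and 49.1, 44.6 and 41.3 CPM in normoxic vq1vq10. The highest hypoxic value, in vq10, was below the lowest normoxic value of any genotype. Hypoxic Col held XTH15 at 4.04, 7.21 and 6.28 CPM, against 33.1, 32.2 and 55.2 CPM in normoxic Col. For XTH15 the log2 change was -3.004 ± 0.36 in vq1, -2.67 ± 0.34 in vq10 and -2.77 ± 0.34 in vq1vq10, with adjusted p of 6.97e-07, 1.78e-06 and 1.18e-06, and -2.78 ± 0.35 in Col, given there as a description since this value was known when the family was put forward. XTH15 overlaps AT4G14120, a gene on the opposite strand, by 382 bases, and the treatment of strand in the counting is not given in the sources used here. AT4G14120 itself had 0.257 to 1.09 CPM in hypoxic libraries and 0.543 to 1.26 CPM in normoxic ones, and its part in the XTH15 values was not tested.

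XTH16 (AT3G23730, chr3:8550037-8551403), the closest relative of XTH15 (81.7% of coding bases identical), moved the same way. XTH16 had 5.60, 7.17 and 10.4 CPM in hypoxic vq1, against 25.9, 29.6 and 32.0 CPM in normoxic vq1. XTH16 stood at 8.67, 12.2 and 10.2 CPM in hypoxic vq10, with 32.2, 24.1 and 24.4 CPM in normoxic vq10. XTH16 in vq1vq10 had 9.86, 7.28 and 10.4 CPM under hypoxia, against 25.1, 26.8 and 17.2 CPM under normoxia. The groups did not overlap in these genotypes. XTH16 in Col had 6.66, 7.06 and 7.97 CPM under hypoxia and 29.0, 21.2 and 23.4 CPM under normoxia. For XTH16 the log2 change was -1.92 ± 0.20, -1.38 ± 0.20, -1.33 ± 0.20 and -1.76 ± 0.20 in vq1, vq10, vq1vq10 and Col, with adjusted p between 1.27e-07 and 1.66e-05.

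XTH25 (AT5G57550, chr5:23304782-23306440) had a similar fall at a lower level. XTH25 measured 1.75, 4.70 and 1.45 CPM in hypoxic vq1 and 12.8, 10.9 and 8.15 CPM in normoxic vq1. For vq10, XTH25 gave 1.42, 1.93 and 1.61 CPM under hypoxia and 11.2, 11.7 and 9.55 CPM under normoxia. XTH25 came to 1.52, 2.84 and 1.85 CPM in hypoxic vq1vq10 and 12.0, 11.0 and 10.3 CPM in normoxic vq1vq10. The second hypoxic library of vq1 was the highest of the hypoxic ones and still below every normoxic one. Hypoxic Col held XTH25 at 2.73, 1.78 and 2.14 CPM, against 6.94, 8.71 and 11.9 CPM in normoxic Col. For XTH25 the log2 change was -2.01 ± 0.30 in vq1, -2.70 ± 0.32 in vq10, -2.42 ± 0.31 in vq1vq10 and -2.06 ± 0.31 in Col, with adjusted p between 6.01e-07 and 1.53e-05.

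XTH17 to XTH20 form a group of close relatives known from the root. XTH17 (AT1G65310, chr1:24257054-24258506) was lower in every genotype. XTH17 measured 1.18, 3.18 and 1.95 CPM in hypoxic vq1 and 9.79, 8.62 and 9.65 CPM in normoxic vq1. For vq10, XTH17 gave 2.47, 3.86 and 3.96 CPM under hypoxia and 11.0, 6.23 and 7.64 CPM under normoxia. XTH17 came to 1.87, 1.92 and 2.17 CPM in hypoxic vq1vq10 and 10.1, 6.26 and 8.32 CPM in normoxic vq1vq10. None of these groups overlapped. Hypoxic Col held XTH17 at 2.04, 3.05 and 3.005 CPM, against 12.2, 7.87 and 8.64 CPM in normoxic Col. For XTH17 the log2 change was -2.15 ± 0.28, -1.27 ± 0.27, -2.04 ± 0.28 and -1.82 ± 0.27 in vq1, vq10, vq1vq10 and Col, with adjusted p between 2.49e-06 and 6.51e-04. XTH18, whose coding sequence is 92.2% identical to that of XTH17, was called in no genotype and had log2 changes of -0.05 to 0.59, and XTH19 was called in none, with -0.38 to 0.15. XTH18 was called in vq1vq10 without hypoxic replicate 3 and with the compared libraries alone, and XTH19 in vq10 without hypoxic replicate 2. XTH20 was lower in vq1 (-1.48 ± 0.33), vq1vq10 (-0.86 ± 0.28) and Col (-1.85 ± 0.31), and its change in vq10 was -0.69 ± 0.28 (adjusted p 0.055). The XTH20 call in vq1vq10 was lost without hypoxic replicate 3 and without normoxic replicate 1, and XTH20 was called in vq10 without hypoxic replicate 2, with library totals alone, with DESeq2 and with the compared libraries alone. XTH17 and XTH18 share an identical run of 47 coding bases and XTH18 and XTH19 one of 68, and how reads shared by such copies were counted is not given, so the split between these 3 genes is uncertain.

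XTH14 (AT4G25820, chr4:13130291-13131860), whose product is known to act on growing roots and root hairs, was lower in each genotype. XTH14 had 6.01, 6.26 and 6.39 CPM in hypoxic vq1, against 14.9, 13.2 and 12.5 CPM in normoxic vq1. XTH14 stood at 2.31, 3.96 and 3.07 CPM in hypoxic vq10, with 12.1, 7.62 and 6.07 CPM in normoxic vq10. XTH14 in vq1vq10 had 4.95, 4.58 and 3.69 CPM under hypoxia, against 22.4, 9.56 and 6.98 CPM under normoxia. Normoxic replicate 1 stood highest in vq1, vq10 and vq1vq10, and no groups overlapped. XTH14 in Col had 6.50, 3.60 and 6.88 CPM under hypoxia and 17.5, 22.96 and 11.4 CPM under normoxia. For XTH14 the log2 change was -1.12 ± 0.34, -1.46 ± 0.37, -1.56 ± 0.35 and -1.61 ± 0.34 in vq1, vq10, vq1vq10 and Col, and the largest adjusted p was 0.0124, in vq1.

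XTH21 (AT2G18800, chr2:8144881-8146477), a root member known for its part in root growth, was a member of low abundance. XTH21 measured 0, 0.606 and 0.849 CPM in hypoxic vq1 and 2.33, 1.67 and 1.22 CPM in normoxic vq1. For vq10, XTH21 gave 0.368, 0.660 and 0.989 CPM under hypoxia and 2.81, 2.42 and 1.78 CPM under normoxia. XTH21 came to 1.11, 0.595 and 1.06 CPM in hypoxic vq1vq10 and 2.80, 2.21 and 2.47 CPM in normoxic vq1vq10. The groups did not overlap, although 1 hypoxic vq1 library had no read. Hypoxic Col held XTH21 at 0.944, 0.609 and 1.59 CPM, against 3.28, 2.65 and 3.23 CPM in normoxic Col. For XTH21 the log2 change was -1.82 ± 0.51, -1.79 ± 0.47, -1.43 ± 0.45 and -1.52 ± 0.44 in vq1, vq10, vq1vq10 and Col. The call in vq1vq10 (adjusted p 0.0164) was lost without hypoxic replicate 2.

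XTH12, XTH13 and XTH26, root members of low abundance, were lower in vq1, vq1vq10 and Col and were not called in vq10. XTH12 had 4, 17, 10 and 10 reads over the 3 hypoxic libraries of vq1, vq10, vq1vq10 and Col, against 132, 63, 148 and 154 over the normoxic ones. XTH13 had 0 reads in hypoxic Col against 80 in normoxic Col, at least 22.3-fold lower when 3 reads over the group are taken as the floor. It had 3 reads in each hypoxic mutant group, against 63 in normoxic vq1, 18 in normoxic vq10 and 44 in normoxic vq1vq10, and the normoxic level was 17.5 times the hypoxic one in vq1 (95% exact counting interval 5.72 to 87.2), 5.02 times in vq10 (1.47 to 26.6) and 13.6 times in vq1vq10 (4.37 to 68.6). XTH26 had 2, 3, 2 and 2 hypoxic reads in vq1, vq10, vq1vq10 and Col, against 80, 16, 25 and 66 normoxic ones. These intervals cover counting error only. The XTH13 call in vq1vq10 was lost without normoxic replicate 1, XTH12 and XTH13 are 89.7% identical in their coding bases, so reads may be split between them uncertainly. Without hypoxic replicate 2, XTH12 and XTH26 were called in vq10, and XTH12 was called there also with library totals alone, with DESeq2 and with the compared libraries alone.

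XTH22, the touch gene TCH4, varied widely between replicates. Its log2 change was -1.25 ± 0.38 in vq1, -1.18 ± 0.38 in vq10 and -1.24 ± 0.38 in vq1vq10, all called, and -0.80 ± 0.38 in Col (adjusted p 0.0981). XTH22 in Col had 47.5, 77.0 and 50.5 CPM under hypoxia and 50.9, 89.1 and 164 CPM under normoxia. The groups overlapped in Col, where normoxic replicate 1 was close to the hypoxic libraries. Each of the 3 calls was lost on leaving out at least 2 of the single libraries in turn, namely hypoxic replicate 3 and normoxic replicate 2 in each mutant and also normoxic replicate 3 in vq10. In Col the gene was called without normoxic replicate 1 and with library totals alone.

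XTH23 (AT4G25810, chr4:13128394-13129927), also known as XTR6, is the closest relative of XTH22 (80.9% of coding bases identical) and rose in every genotype. XTH23 measured 12.2, 14.2 and 9.84 CPM in hypoxic vq1 and 5.31, 4.72 and 5.60 CPM in normoxic vq1. For vq10, XTH23 gave 13.2, 20.4 and 8.85 CPM under hypoxia and 5.79, 4.66 and 3.61 CPM under normoxia. XTH23 came to 27.4, 20.4 and 12.6 CPM in hypoxic vq1vq10 and 6.18, 4.42 and 5.37 CPM in normoxic vq1vq10. Each hypoxic library lay above every normoxic one of its genotype, with the widest spread in vq10 and vq1vq10. Hypoxic Col held XTH23 at 11.5, 12.2 and 16.9 CPM, against 6.82, 8.31 and 6.04 CPM in normoxic Col. For XTH23 the log2 change was 1.22 ± 0.28 in vq1, 1.59 ± 0.28 in vq10, 1.92 ± 0.27 in vq1vq10 and 0.94 ± 0.27 in Col, with adjusted p of 0.00139, 9.10e-05, 7.97e-06 and 0.00698.

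XTH24 (AT4G30270, chr4:14819192-14820595), the second most abundant member, was called in no genotype, although it was called lower in vq1 with library totals alone and with the compared libraries alone. XTH24 had 316, 294 and 225 CPM in hypoxic vq1, against 442, 359 and 413 CPM in normoxic vq1. XTH24 stood at 383, 351 and 296 CPM in hypoxic vq10, with 522, 309.8 and 259 CPM in normoxic vq10. XTH24 in vq1vq10 had 392, 351 and 307 CPM under hypoxia, against 625, 366 and 327 CPM under normoxia. In CPM, replicate 1 was the highest of the normoxic libraries in every genotype. XTH24 in Col had 258, 352 and 262 CPM under hypoxia and 339, 276 and 261 CPM under normoxia. For XTH24 the log2 change was -0.54 ± 0.23 in vq1 (adjusted p 0.0695), -0.08 ± 0.23 in vq10, -0.33 ± 0.23 in vq1vq10 and -0.01 ± 0.23 in Col. The groups of vq1 did not overlap, and those of the other genotypes did.

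**Figure D4:**
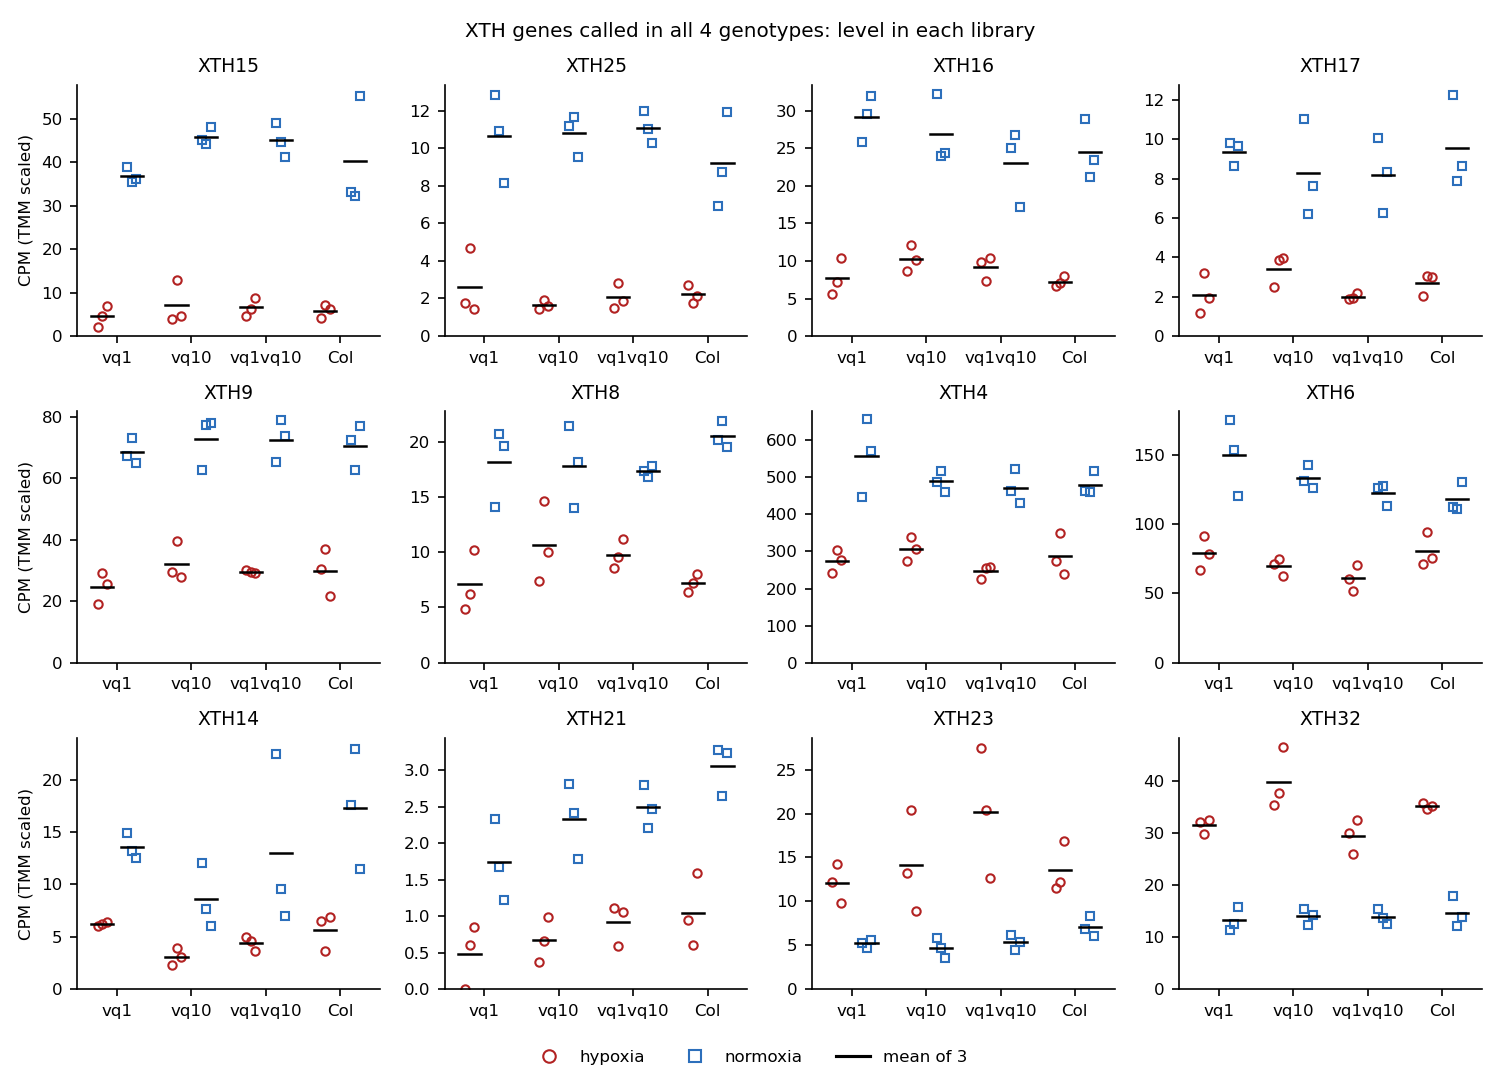
TMM-scaled CPM of the 12 XTH genes called in all 4 genotypes with a log2 change of at least 1 in size in one of them (y axes from 0, a scale for each gene), with hypoxic libraries as circles left of normoxic ones as squares and bars at the mean of 3. XTH8 in vq10 is the case in which the groups overlap, and XTH23 and XTH32 are the panels in which hypoxia is higher.

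XTH32 (AT2G36870, chr2:15472607-15474828), of the pair known to hydrolyse xyloglucan, rose in every genotype with little spread. XTH32 had 32.0, 29.8 and 32.5 CPM in hypoxic vq1, against 11.4, 12.4 and 15.7 CPM in normoxic vq1. XTH32 stood at 35.3, 37.6 and 46.5 CPM in hypoxic vq10, with 15.3, 12.4 and 14.3 CPM in normoxic vq10. XTH32 in vq1vq10 had 29.9, 25.9 and 32.3 CPM under hypoxia, against 15.4, 13.6 and 12.6 CPM under normoxia. The lowest hypoxic library of all was above the highest normoxic one. XTH32 in Col had 35.6, 34.6 and 35.1 CPM under hypoxia and 17.9, 12.2 and 13.9 CPM under normoxia. For XTH32 the log2 change was 1.25 ± 0.14, 1.51 ± 0.14, 1.08 ± 0.14 and 1.26 ± 0.14 in vq1, vq10, vq1vq10 and Col, with adjusted p between 1.28e-08 and 1.94e-06. XTH31, its closest relative (67.0% of coding bases identical), was called in no genotype, with log2 changes of -0.40 to 0.04, but was called in Col without hypoxic replicate 3.

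XTH27 (AT2G01850, chr2:385171-387478), known as EXGT-A3 and from leaf veins, was the most abundant member of subgroup III and changed little. XTH27 measured 153, 164 and 164 CPM in hypoxic vq1 and 133, 133 and 113 CPM in normoxic vq1. For vq10, XTH27 gave 162, 158 and 149 CPM under hypoxia and 130.2, 125 and 122 CPM under normoxia. XTH27 came to 155, 135 and 142 CPM in hypoxic vq1vq10 and 134, 133 and 120.3 CPM in normoxic vq1vq10. The hypoxic libraries lay above the normoxic ones in each, by a small step. Hypoxic Col held XTH27 at 149, 166 and 151 CPM, against 109, 124 and 125 CPM in normoxic Col. It was called in vq1 (0.34 ± 0.08), vq10 (0.31 ± 0.08) and Col (0.38 ± 0.08), and its change in vq1vq10 was 0.15 ± 0.08 (adjusted p 0.165). None of these calls stood when libraries were scaled by their totals alone, a setting under which the median of all genes moved to -0.20 in vq1, -0.24 in vq10, -0.12 in vq1vq10 and -0.25 in Col.

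The other members of subgroup III gave smaller or less even values. XTH28 was called higher in vq10 (0.38 ± 0.11) and Col (0.33 ± 0.11), but neither call stood with library totals alone or without normoxic replicate 2 of its genotype, and the Col call was also lost without hypoxic replicate 2 or normoxic replicate 3. XTH30 was lower in vq10 (-0.40 ± 0.09) and vq1vq10 (-0.36 ± 0.09), and also in Col without hypoxic replicate 3, and in Col and vq1 with library totals alone. XTH33, whose product is known as a plasma membrane protein, was lower in vq1 (-1.86 ± 0.52) and Col (-2.12 ± 0.53) and had changes of -0.94 ± 0.48 in vq10 and -0.83 ± 0.50 in vq1vq10 that were not called. The call in vq1 was lost without normoxic replicate 3, and XTH33 was called in vq10 without hypoxic replicate 2.

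Several members lie beside each other on the chromosomes, so the responses of neighbours could be set side by side. XTH23 and XTH14 lie 363 bases apart on the same strand of chromosome 4 with no coding gene between them, and XTH23 was called higher and XTH14 lower in all 4 genotypes. XTH24, XTH18 and XTH19 lie in a row on chromosome 4, separated by 5161 and 1500 bases, and none of the 3 was called. XTH12, XTH13, XTH25 and XTH22 lie in that order on chromosome 5, with 1 other coding gene between XTH12 and XTH13 and none between the rest, and all 4 had negative changes in every genotype. Members of subgroups I and III have 3 introns in their coding models, and those of subgroup II have 2, other than XTH22 with 1 and XTH26 with 3.

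**Figure D5:**
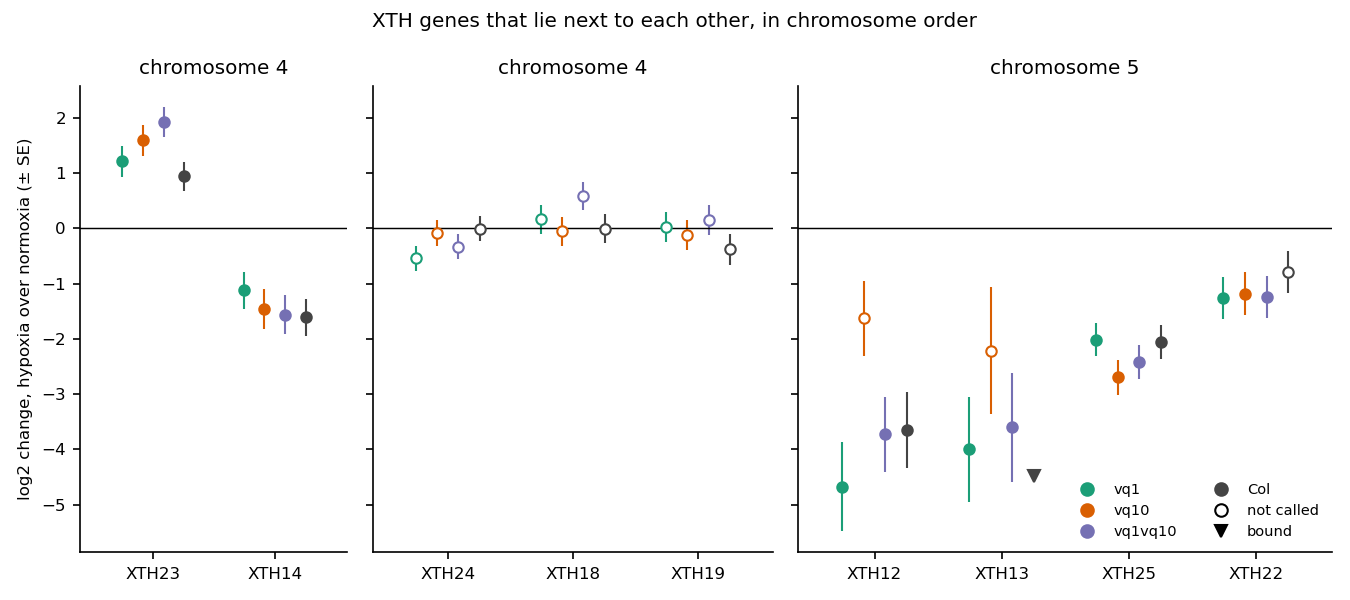
Log2 change, hypoxia over normoxia, with the standard error, of XTH genes that are neighbours, in chromosome order (filled, called; open, not called; triangle, bound from 0 hypoxic reads). XTH23 and XTH14, 363 bases apart, lie on opposite sides of 0 in all 4 genotypes, and the row of XTH12, XTH13, XTH25 and XTH22 lies below 0.

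Genes for making and trimming xyloglucan were in part lower as well. Of 15 genes for xyloglucan synthesis, 10 were lower in vq1, 7 in vq10, 7 in vq1vq10 and 11 in Col under hypoxia, and none was higher, beside 16.5%, 18.2%, 15.7% and 19.9% of all genes tested called lower, with medians of -0.46, -0.33, -0.31 and -0.59 on the log2 scale. In Col the largest falls were those of the xylosyltransferase gene XXT3 (-1.85 ± 0.29), the backbone synthase genes CSLC12 (-1.60 ± 0.33) and CSLC4 (-1.20 ± 0.17), and the acetyltransferase gene AXY4 (-1.23 ± 0.20). Of 6 tested genes for trimming xyloglucan, 2 were lower in vq1, 2 in vq10, 3 in vq1vq10 and 4 in Col and none was higher, where the same shares of all genes apply, among them the fucosidase gene AXY8 (-0.63 ± 0.14 in Col), the xylosidase gene XYL1 (-0.56 ± 0.11), the galactosidase gene BGAL10 (-0.41 ± 0.14) and the glucosidase gene BGLC1 (-0.20 ± 0.08).

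Of 6 cellulose synthase genes of the primary wall, 3 were lower in each mutant and 4 in Col, beside 15.7% to 19.9% of all genes, and in Col CESA3 (-0.57 ± 0.11), CESA2 (-0.49 ± 0.11), CESA1 (-0.46 ± 0.09) and CESA6 (-0.45 ± 0.15) passed. CESA5 was higher in vq10 (0.55 ± 0.16) and vq1vq10 (0.50 ± 0.16), 1 of 6 genes beside 19.5% and 17.7% of all genes called higher. Of the 3 other touch genes, which encode calmodulin and its relatives, 2 were lower in vq1, 1 in vq10, none in vq1vq10 and 2 in Col, beside 16.5%, 18.2%, 15.7% and 19.9% of all genes. CAM2 (-0.76 ± 0.15) and CML24 (-0.71 ± 0.19) were the pair in Col. The 3 genes summed to 60.0 to 128.3 CPM in hypoxic libraries and 92.0 to 197.5 CPM in normoxic ones, so the ranges overlapped. Among the normoxic libraries this sum was lowest in replicate 1 of every genotype.

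Markers of root cell types were in part lower under hypoxia as well. Of 8 root hair markers 7 were lower in each genotype, beside 15.7% to 19.9% of all genes, and their summed level was 7.5 to 20.1 CPM in hypoxic libraries against 31.6 to 93.0 CPM in normoxic ones, with RSL4 at 0 in 2 libraries. Of 6 root endodermis markers, 3 were lower in vq1 and 5 in each other genotype, beside the same 15.7% to 19.9% of all genes. These markers summed to 29.0 to 56.7 CPM in hypoxic libraries against 54.4 to 96.3 CPM in normoxic ones. Of 5 green shoot markers, RBCS1A and RCA were higher in each genotype, beside 17.7% to 21.9% of all genes called higher, and the other 3 were called in none, with log2 changes of LHCB1.2, LHCB1.3 and PSBO1 all below 0 in vq1vq10 and all above 0 in vq10 and Col. The 5 had sums of 69261 to 98004 CPM in hypoxic libraries against 61743 to 75373 CPM in normoxic ones. Of 5 xylem markers, 1 was higher in each of vq10, vq1vq10 and Col, and 1 was lower in vq10. These single calls are near the shares of all genes, 19.5%, 17.7% and 21.9% called higher and 18.2% called lower in vq10. The xylem markers summed to 108.7 to 128.2 CPM under hypoxia and 86.0 to 147.0 CPM under normoxia. The part of these markers' cell types in the responses of the root members XTH12, XTH13, XTH14, XTH17, XTH18, XTH19, XTH20, XTH21 and XTH26 was not tested. Of these, XTH18 and XTH19 were called lower in no genotype.

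The mutants were compared with Col at each oxygen level, and their responses with that of Col, to ask whether the vq1 and vq10 alleles alter the family. The 3 mutants share the Col libraries. By edgeR no member was called in any of the 9 comparisons. Under hypoxia 0.0845% of all genes were called in vq1, 0.0646% in vq10 and 0.0845% in vq1vq10 against Col, under normoxia 0.0796%, 0.0597% and 0.0646%, and for the differences in response 0%. DESeq2 also called no member. At an unadjusted p under 0.05 the members numbered 1 in vq1, 7 in vq10 and 4 in vq1vq10 under hypoxia, 2, 5 and 2 under normoxia, and 0, 3 and 4 for the responses, of 28 each. Of all genes, 5.47%, 8.5% and 9.42% were under that threshold in vq1, vq10 and vq1vq10 under hypoxia, 7.22%, 3.55% and 4.32% under normoxia, and 3.39%, 8.22% and 8.15% for the responses.

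The smallest adjusted p of a member against Col was 0.287, for XTH20 in hypoxic vq10. XTH20 had 1.89, 3.02 and 1.82 CPM in hypoxic vq10, 2.05, 2.56 and 1.15 CPM in hypoxic vq1vq10, 1.23, 0.657 and 0.649 CPM in hypoxic vq1, and 1.47, 0.609 and 0.774 CPM in hypoxic Col. The vq10 libraries lay above the Col ones by 1.25 on the log2 scale (95% interval 0.58 to 1.92), and the vq1vq10 value was 1.02 (0.35 to 1.70, adjusted p 0.364). Its response to hypoxia differed from that of Col by 1.16 in vq10 (0.29 to 2.03) and 0.99 in vq1vq10 (0.12 to 1.87), with adjusted p of 0.595 and 0.562. None of these passed the correction.

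Under normoxia none of the 9 root members was called between vq10 and Col. The log2 differences, vq10 over Col, of XTH12, XTH13, XTH14 and XTH26 were -1.25 ± 0.52, -2.09 ± 0.68, -1.01 ± 0.33 and -1.98 ± 0.60 (SE), those of XTH17, XTH18, XTH19 and XTH21 were -0.21 ± 0.24, -0.26 ± 0.26, -0.26 ± 0.27 and -0.39 ± 0.40, and that of XTH20 was 0.09 ± 0.27, with adjusted p of 1 in each case. The root hair markers summed to 92.0, 41.3 and 31.6 CPM in normoxic vq10, 93.0, 52.3 and 41.7 CPM in normoxic vq1vq10, 79.2, 63.5 and 65.7 CPM in normoxic vq1, and 85.8, 84.3 and 56.9 CPM in normoxic Col. Replicate 1 was the highest of these libraries in every genotype. It was also the highest normoxic library in CPM for XTH24 in every genotype and for XTH14 in vq1, vq10 and vq1vq10, but not for XTH14 in Col. The part of the root hairs in these values was not tested. The smallest adjusted p of a member for the response of vq1vq10 was that of XTH23, with a difference of 0.98 ± 0.38 (0.20 to 1.76, adjusted p 0.542), and for normoxic vq1 against Col it was that of XTH31, with a difference of -0.81 ± 0.27 (-1.36 to -0.25, adjusted p 0.529). Intervals this wide leave room for differences of more than 1 log2 unit in either of these genes.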

How the data were processed

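RNA of whole seedlings (NucleoSpin kit, RIN above 8) was made into MGIEasy libraries, per the labels' protocols. HISAT2 2.0.4, DESeq2 and TAIR10 are named by the submitters' processing notes with no role. For the counter, its use of strand and filters, nothing is given in the sources used here. The tables list reads, TPM and FPKM for every gene, per the file headers. The deposited reads are expected counts (525 to 581 values in a library are fractional) and were rounded. Deposited TPM served for levels between genes. Deposited FPKM was also read, but within a library it gives the same order of genes as TPM.

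All 23929 gene identifiers matched a TAIR10.1 locus. edgeR 4.0.16 in R 4.3.3 fitted all 24 libraries with 1 mean per group, TMM factors (0.876 to 1.018 in hypoxia, 1.03 to 1.108 in normoxia) and filterByExpr, adjusting p over the 20110 genes tested. The biological coefficient of variation was 0.127. The fit was also run on simulated counts with the same dispersion for every gene and changes in hypoxic Col alone, a simpler case than these data. Alternatives were RLE factors, library totals, no filter, DESeq2 1.42.0, the compared libraries alone, a replicate block and each library left out. The labels call the replicates biological without saying what separates them, so p-values measure the spread between these samples.

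Members, lists and markers were chosen with earlier results of these data known. Values of every library are given for members called in all 4 genotypes with an absolute log2 change of at least 1, and for the 3 most abundant. Up to 4 called genes per pathway list are named by their change in Col. XTH5 and XTH22 in Col were added after their values were seen. Introns, identities and upstream windows were computed from TAIR10.1.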

Additional observations from a re-analysis of the deposited data

How the results depend on the processing

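With library totals alone, members called higher under hypoxia numbered 2 in vq1, 2 in vq10 and 3 in Col, against 4, 5 and 5 with TMM factors, and genes of the pathway and marker lists called higher numbered 2 in vq10 and 2 in vq1vq10, against 4 and 4. Under that setting 2433 of all genes were higher and 7503 lower in Col, against 4401 and 4009 with TMM factors, while 18 members were lower in Col, against 16. Leaving out each library in turn gave 19 to 23 called members in Col, 19 to 21 in vq1, 15 to 22 in vq10 and 18 to 20 in vq1vq10. List genes called higher ranged from 2 to 5 in Col and from 2 to 4 in vq1vq10. None of the 10 pairs of groups compared had all 3 same-numbered correlations of residuals above 0.1, and the hypoxia-with-normoxia correlations had a median of -0.087. These values cannot show that replicate numbers do not pair the libraries. Within an oxygen level the median was 0.124 in hypoxia and 0.102 in normoxia, and 3 of the 18 pairs of groups not compared, all between mutants, had all 3 above 0.1. Every library correlated best with its own number in 2 of the 10 compared pairs, a hint from the data and not the design. Under normoxia, replicate 1 also had the lowest touch-gene sum and the highest root hair marker sum in every genotype. With the replicate block 22 members were called in vq1, 20 in vq10, 20 in vq1vq10 and 22 in Col, and none against Col. The block added calls for XTH24 in vq1, XTH12, XTH20 and XTH33 in vq10, and XTH22 in Col, and ended none.

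Of 79 called member changes, 62 kept their call under every alternative run, 17 lost it under at least one and none reversed. Of 33 uncalled ones, 11 were called under at least one alternative. XTH28 in Col was also lost with the compared libraries alone. No member was called in the mutant comparisons or differences in response under any alternative run. The order of levels was taken from TPM. FPKM could not test it, since within a library the scales differ only by a constant factor. Depth limits XTH2, XTH11 and XTH29, which could not be tested, and XTH13 and XTH26, whose folds rest on at most 3 hypoxic reads per group. The cause of the changes under other settings was not tested.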
